A study of Mus musculus with 5 samples.

Results

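Interferon-stimulated genes were examined in RNA-seq libraries of cultured mouse glia. They comprised 44 genes chosen by name as known interferon-response genes, out of 20178 RefSeq transcripts counted, nearly all of them 1 per gene. The choice was made with earlier results of these data known. All 44 were found, 1 transcript each. There were 5 libraries, 1 for each condition and no replicate, all from ICR mice at passage 2. VM AST, VM C and VM NF came from ventral midbrain (VM) astrocyte progenitor cells of postnatal day 5 pups. VM AST carries no entry for a virus. VM C and VM NF were each transduced with lentivirus, and their labels contradict each other. The titles read as control (C) and as Nurr1 plus Foxa2 (NF), while the transduction entries give Nurr1 and Foxa2 viruses for VM C and the mock virus for VM NF. Libraries are therefore named here by title alone, and with the transduction entries the treatments of VM C and VM NF would be exchanged. Per the study's methods, Nurr1 (mouse cDNA) and Foxa2 (rat cDNA) were driven by the CMV promoter, which is not restricted to one cell type, and the empty vector served as control. Ctx AST came from cortical astrocyte progenitor cells of postnatal day 5 and Ctx NPC from cortical neural progenitor cells of embryonic day 12. Neither carries a virus entry. How many animals gave each culture is not given in the sources used here. The question put to these genes was whether the transduced cultures show an antiviral response and which genes carry it.

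Type I interferons are secreted proteins that bind the receptor Ifnar1 and Ifnar2 on the cell surface. The receptor-bound kinases Jak1 and Tyk2 then act on signal transducers such as Stat2, which joins Irf9 to bind the interferon-stimulated response element (ISRE) in the promoters of target genes. Many of these targets restrict viruses, and in the brain astrocytes and microglia are both known to express them.

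The bases just before the start site were read from RefSeq on GRCm38.p6 to show the sites this factor is known to bind. The letters GAAANNGAAA (or TTTCNNTTTC on the other strand) were taken as the ISRE, where overlapping matches counted separately. The letters TTCNNNGAA, which read the same on both strands, were taken as the gamma-activated site (GAS), known from the response to interferon gamma. The ISRE letters stood within 250 bases upstream of the start in 13 of the 35 member genes with a window (37.1%), against 936 of 27025 genes in all (3.46%). For the GAS letters it was 7 of 35 members (20%) and 2197 genes in all (8.13%). No window was given for Dhx58, Zbp1, Usp18, Oas2, Mx2, Parp9, Parp14, Rtp4 and Tor3a. Start sites are those of the RefSeq promoter table, and the outer bounds of the gene in RefSeq begin 410 bases farther upstream for Ifit3 and 19 for Oas1a. The 160 bases before the start are shown, on the strand of the gene, for 5 members with a range of responses and for Irf1, the one called lower in VM C. Capitals mark the ISRE letters, or the GAS letters in Irf1. A match of letters is a description and not a measured binding site.
Isg15 (chr4:156200819-156200978, minus strand): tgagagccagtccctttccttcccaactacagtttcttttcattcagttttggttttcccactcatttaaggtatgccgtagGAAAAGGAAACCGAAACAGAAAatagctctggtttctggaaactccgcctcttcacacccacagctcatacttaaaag
Ifit1 (chr19:34640729-34640888, plus strand): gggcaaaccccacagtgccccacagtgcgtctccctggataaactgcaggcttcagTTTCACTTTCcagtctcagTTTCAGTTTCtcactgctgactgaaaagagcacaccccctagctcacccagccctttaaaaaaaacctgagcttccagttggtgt
Ifit3 (chr19:34583369-34583528, plus strand): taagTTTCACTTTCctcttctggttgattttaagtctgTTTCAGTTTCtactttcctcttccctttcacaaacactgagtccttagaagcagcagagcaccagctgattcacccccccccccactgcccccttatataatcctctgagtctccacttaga
Oas1a (chr5:120907526-120907685, minus strand): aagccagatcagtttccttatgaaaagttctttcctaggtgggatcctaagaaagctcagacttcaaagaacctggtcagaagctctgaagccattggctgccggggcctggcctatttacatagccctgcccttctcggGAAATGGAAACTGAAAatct
Irgm1 (chr11:48871421-48871580, minus strand): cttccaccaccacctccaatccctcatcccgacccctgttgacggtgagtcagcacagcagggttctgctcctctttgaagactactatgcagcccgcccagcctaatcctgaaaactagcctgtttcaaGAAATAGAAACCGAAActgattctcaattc
Irf1 (chr11:53769854-53770013, plus strand): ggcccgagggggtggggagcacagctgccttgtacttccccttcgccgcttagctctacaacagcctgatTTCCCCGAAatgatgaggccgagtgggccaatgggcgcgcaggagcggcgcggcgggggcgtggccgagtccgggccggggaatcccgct
Overlapping ISRE matches stood in Isg15 (3 matches), Oas1a (2 matches) and Irgm1 (2 matches), within 80 bases of the start. Ifit1 and Ifit3 each had 2 separate ISRE matches farther upstream, and Irf1 had 1 GAS match and no ISRE match in this window.

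Library totals lay between 20010818 and 22554835 reads, so that 3 reads, the smallest count taken as measurable, equal a CPM (counts scaled to library size) of 0.133 to 0.150. Foxa2 had 68 reads in VM AST, 15 in VM C and 216 in VM NF, and Nr4a2, the gene of Nurr1, had 81 reads in VM AST, 53 in VM C and 183 in VM NF. Both were highest in VM NF, which goes with the titles. Of transcripts that passed the filter given below, 0.322% were at least 2-fold higher and 0.668% lower in VM NF than in VM AST. In VM C the shares were 7.3% and 8.48%, so VM NF lay closer to the library without a virus entry. These values do not settle the labels. Astrocyte markers were present in all 5 libraries. Microglial markers were present in every VM library, with a summed FPKM (reads scaled to transcript length and library size) of 213 in VM AST, 797 in VM C and 153 in VM NF. The Ctx NPC library also held 122531 reads of the astrocyte gene Gfap and 75411 reads of the myelin gene Mbp beside its progenitor genes, so that it is called here by its label only. In bulk RNA, fewer cells of a type and less RNA per cell cannot be told apart.

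The interferon-stimulated genes were expressed in all 4 astrocyte libraries. Their reads made up 0.502% of all reads in VM AST, 0.586% in VM C, 0.384% in VM NF, 0.327% in Ctx AST and 0.0785% in Ctx NPC, and these shares did not overlap in their exact (Clopper-Pearson) 95% intervals (0.583% to 0.589% in VM C, 0.499% to 0.505% in VM AST and 0.382% to 0.387% in VM NF). Such intervals, here and below, cover counting error only, because no replicate culture exists. PCR copies of one molecule are counted as separate reads, so the intervals can be too narrow even for counting error. Scaled to transcript length, the summed FPKM of the 44 genes was nearly equal in VM AST (3426) and VM C (3452). Of these sums Ifitm3 alone made up 1386 in VM AST and 1033 in VM C, so they depend much on this gene. The sum was 2530 in VM NF, 2092 in Ctx AST and 596 in Ctx NPC. Median FPKM of the 44 genes was 25.3 in VM AST, 26.2 in VM C, 19.8 in VM NF, 17.0 in Ctx AST and 1.46 in Ctx NPC. VM C was the highest of the 5 libraries for 36 of the 44 genes, and Ctx NPC the lowest for 42. Among the VM libraries alone, VM NF was the lowest for 38 genes. FPKM exceeded 1 for 43 genes in VM AST, 44 in VM C, 43 in VM NF, 41 in Ctx AST and 25 in Ctx NPC.

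**Figure D1:**
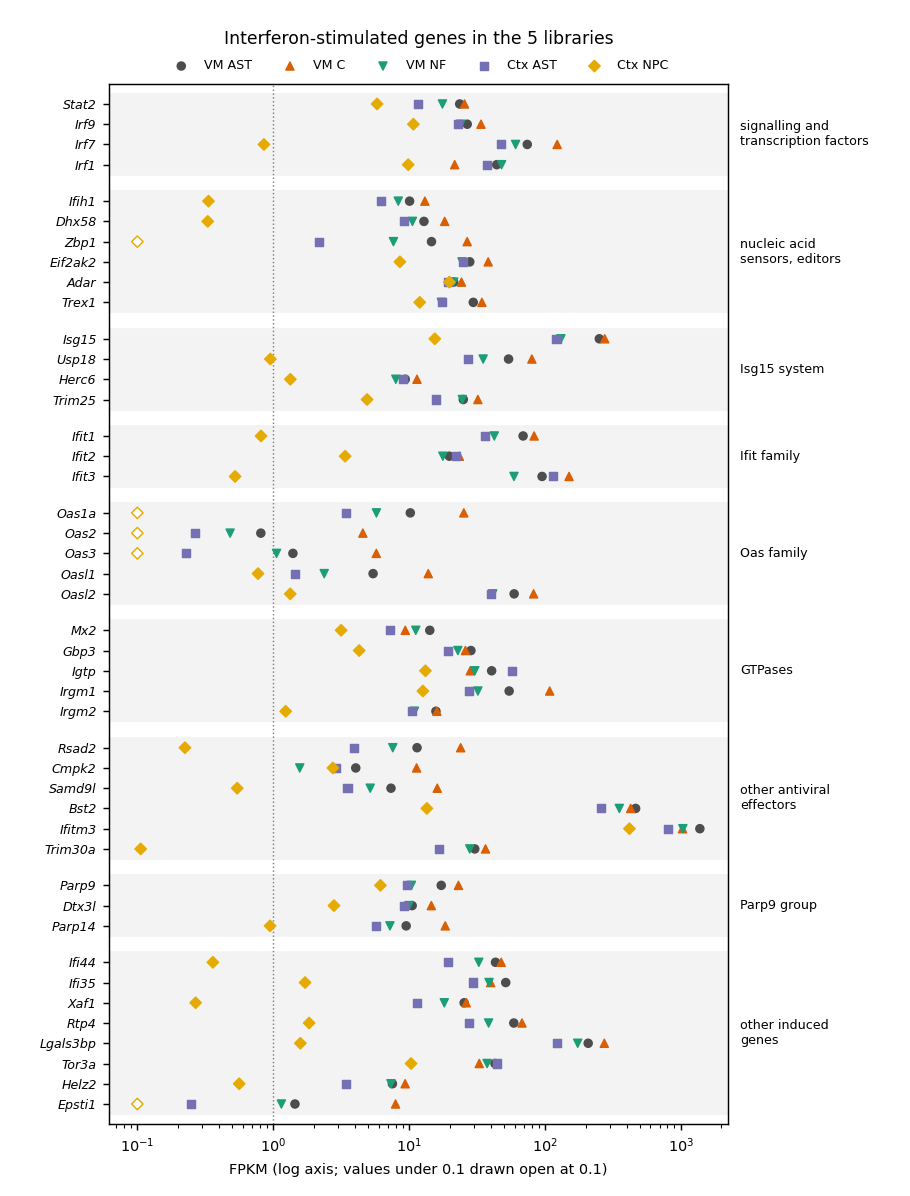
FPKM (log axis) of each of the 44 interferon-stimulated genes, grouped by role, with 1 symbol for each of the 5 libraries and open symbols at 0.1 for lower values. VM C (triangles) was the highest library for 36 genes and Ctx NPC (diamonds) the lowest for 42, and the genes reach from under 1 to 1386 in VM AST.

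Differences are given as log2 ratios of reads scaled to library totals, with 0.5 reads (scaled to library size) added to each count. A call required a difference of 2-fold or more and an FPKM over 1 in either library compared. No test of the conditions and no p can be given without replicates. VM C and VM NF are both set against the same VM AST library, so the comparisons share it and their values are given side by side.

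In VM C against VM AST, 8 of the 44 genes were at least 2-fold higher and 1 was at least 2-fold lower, where 7.3% and 8.48% of the 12703 transcripts that passed the filter were. The 8 were Oas1a, Oas2, Oas3, Oasl1, Rsad2, Cmpk2, Samd9l and Epsti1, and the lower one was Irf1. Counted at any size, 36 genes were higher in VM C (48.9% of all transcripts were), and the interval lay above 0 for 34 genes, below 0 for 8 and held 0 for 2. The median log2 ratio was 0.35, against -0.01 over all transcripts. The 8 genes called higher were low in VM AST, between 0.812 and 11.5 FPKM (median 4.75), while the 35 called in neither direction lay between 7.56 and 1386 (median 28.6). The call itself rests on these VM AST values, but the 8 were also the lower group in VM C (median 12.6 against 32.9). Oas2 passed the filter through VM C only. With FPKM above 1 required in both libraries, 7 of 43 members were at least 2-fold higher (5.4% of all transcripts). At the cutoff, Rsad2 lay just inside (1.07) and Irgm1 just outside (0.99). All 14 microglial markers in the files were also higher in VM C, 12 of them at least 2-fold among 13 that passed the filter (median 1.99), and the part of this in the higher interferon-stimulated genes was not tested.

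In VM NF against VM AST, 0 of 43 genes were at least 2-fold higher and 2 were at least 2-fold lower, Oasl1 and Cmpk2, where 0.322% and 0.668% of all transcripts were. At any size 41 of the 43 were lower, against 57.5% of all transcripts, and the median log2 ratio was -0.41, against -0.05. Of all 44 genes, the interval lay below 0 for 38, above 0 for 1 (Irf1) and held 0 for 5. Under TMM scaling Trim25 and Helz2 were higher rather than lower in VM NF, and the median over members was -0.35. Isg15 lay just outside the cutoff (-0.94). Of the 14 microglial markers 12 were lower in VM NF, with a median of -0.48 over all 14, and their part in the lower values was not tested.

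Set directly against VM C, VM NF was at least 2-fold lower for 16 of the 44 genes and at least 2-fold higher for 1, Irf1 (9.73% and 9.53% of all transcripts). In all, 39 were lower at any size, beside 50.9% of transcripts, with a median of -0.65 against -0.02. With FPKM above 1 required in both libraries, 15 of 43 members were at least 2-fold lower (7.31% of all transcripts). The lowest ratios were those of Oas2 (-3.23, passed the filter through VM C only), Cmpk2 (-2.85), Epsti1 (-2.78) and Oasl1 (-2.54). Besides these, Irf7, Zbp1, Isg15, Usp18, Ifit3, Oas1a, Oas3, Irgm1, Rsad2, Samd9l, Parp9 and Parp14 were called lower. Beside Irf1 (1.15), Mx2 (0.26), Tor3a (0.19), Igtp (0.11) and Ifitm3 were higher in VM NF, and Ifitm3 turned lower under median-of-ratios scaling. Irf7 lay just inside the cutoff (-1.02) and Oasl2 just outside, a little under 2-fold. All 14 microglial markers were lower in VM NF than in VM C, and their part was not tested.

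**Figure D2:**
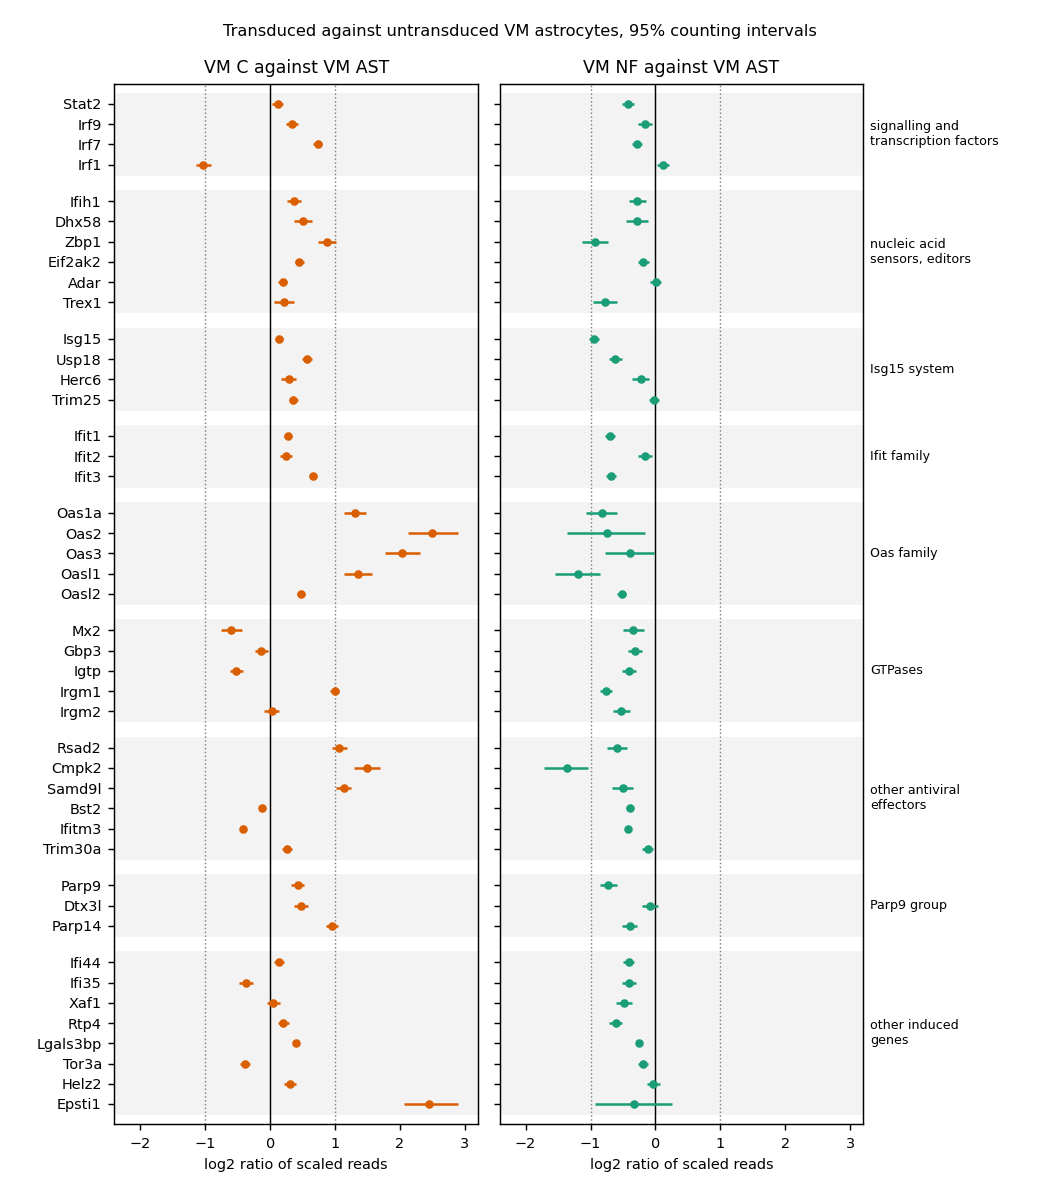
Log2 ratio of scaled reads for the 44 genes in VM C (left) and VM NF (right) against VM AST, with exact 95% counting intervals as bars and dotted lines at 2-fold. Most points lie right of 0 for VM C (36 genes) and left of 0 for VM NF (42 genes), and Oas2, Oas3 and Epsti1 lie farthest right for VM C.

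The ligands themselves were almost without reads. Of the 21 interferon genes listed, Ifnb1, the gene of interferon beta, had 1 read in each of VM AST, VM C, VM NF and Ctx AST, and Ifng, the gene of interferon gamma, had 1 read in VM NF. The other 19 had 0 reads in all 5 libraries, which allows up to 3 reads in each. Their level was therefore not measurable at this depth.

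The receptors and kinases that receive the signal differed by less than 2-fold between VM AST and either transduced library, other than Il10rb and the low Ifnlr1 in VM C. Ifnar1 and Ifnar2, the chains of the type I receptor, had FPKM of 15.0 in VM AST, 18.6 in VM C and 15.8 in VM NF, and of 29.2 in VM AST, 31.0 in VM C and 27.1 in VM NF. For the type II receptor, Ifngr1 stood at 47.0 in VM AST, 31.8 in VM C and 44.9 in VM NF, and Ifngr2 at 60.4 in VM AST, 56.4 in VM C and 59.3 in VM NF. Ifnlr1, the type III receptor chain, was near the filter at 0.888 in VM AST, 0.408 in VM C and 1.06 in VM NF. Il10rb, its partner and also a chain of the interleukin 10 receptor, was the one gene of this list called in VM C, at 22.1 in VM AST, 47.8 in VM C and 17.3 in VM NF (log2 ratio 1.11). Jak1 had FPKM of 39.4 in VM AST, 53.4 in VM C and 42.1 in VM NF, Jak2 of 18.3 in VM AST, 16.7 in VM C and 17.3 in VM NF, and Tyk2 of 6.89 in VM AST, 7.56 in VM C and 6.63 in VM NF. None of these kinases reached 2-fold in either transduced library. Of the 8 genes of this list that passed the filter in VM C, 1 was at least 2-fold higher and 0 lower (7.3% and 8.48% of all transcripts), and in VM NF 0 of 9 were in either direction (0.322% and 0.668%), medians 0.11 and -0.06. Of the 6 inhibitors of the pathway (medians -0.09 and -0.16), 1 was at least 2-fold higher in VM C and 0 lower (7.3% and 8.48% of all transcripts). In VM NF 0 of 6 were in either direction (0.322% and 0.668%). The one called in VM C was Ptpn6, a phosphatase of blood-derived cells, at 3.67 in VM AST, 16.2 in VM C and 1.89 in VM NF (2.14 in VM C).

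Among the transcription factors, Irf7, which drives further interferon production, had FPKM of 74.3 in VM AST, 123 in VM C, 61.0 in VM NF, 47.3 in Ctx AST and 0.856 in Ctx NPC. It was highest in VM C (0.73, interval 0.67 to 0.80) and lower in VM NF than in VM AST (-0.28, -0.36 to -0.21). Stat2 stood at 23.6 in VM AST, 25.6 in VM C, 17.6 in VM NF, 11.6 in Ctx AST and 5.83 in Ctx NPC, and its ratio in VM C was small (0.12), with a lower value in VM NF (-0.42). Irf9, the DNA-binding partner of Stat2, had 26.8 in VM AST, 33.9 in VM C, 24.1 in VM NF, 22.99 in Ctx AST and 10.8 in Ctx NPC, which gave 0.34 in VM C and -0.16 in VM NF.

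Irf1, on chromosome 11 from 53770014 to 53778374 on GRCm38.p6, is a factor known to be induced strongly by interferon gamma. It was the one member at least 2-fold lower in VM C, with 1982 reads in VM AST, 1029 in VM C, 2056 in VM NF, 1692 in Ctx AST and 415 in Ctx NPC. Its FPKM was 44.3 in VM AST, 21.7 in VM C, 48.1 in VM NF, 37.6 in Ctx AST and 9.87 in Ctx NPC. VM C was the low library of the 3 VM libraries, 2.04-fold below VM AST (-1.03, interval -1.14 to -0.92), and VM NF lay close to VM AST (0.12, interval 0.03 to 0.21). With median-of-ratios scaling Irf1 fell just short of 2-fold in VM C. Its promoter stretch, shown above, holds the GAS letters and no ISRE letters. GAS letters also stood before members higher in VM C, such as Oas1a (1.31), and lower, such as Igtp (-0.52). The part of the letters in these values was not tested. Among the other interferon-induced genes, Cxcl10, a chemokine, was likewise lower in VM C, at 161 in VM AST, 42.3 in VM C and 98.7 in VM NF (-1.93).

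The 6 genes listed as nucleic acid sensors and editors were all higher in VM C than in VM AST, none by 2-fold. Zbp1, a sensor of Z-form nucleic acid, differed most among them, with FPKM of 14.7 in VM AST, 26.8 in VM C, 7.69 in VM NF, 2.17 in Ctx AST and 0 in Ctx NPC. It was nearly 2-fold higher in VM C (0.87) and nearly 2-fold lower in VM NF (-0.93), and at 0 reads in Ctx NPC. Ifih1 (MDA5) and Dhx58 (LGP2), sensors of viral double-stranded RNA, had similar patterns, with 10.1 in VM AST, 13.1 in VM C, 8.34 in VM NF, 6.21 in Ctx AST and 0.334 in Ctx NPC for Ifih1. Dhx58 had 12.9 in VM AST, 18.3 in VM C, 10.6 in VM NF, 9.23 in Ctx AST and 0.330 in Ctx NPC. Both were lower in VM NF by the same amount (-0.28 and -0.28). Eif2ak2, the kinase PKR that halts translation, had 28.0 in VM AST, 38.3 in VM C, 24.6 in VM NF, 24.9 in Ctx AST and 8.57 in Ctx NPC, with 0.45 in VM C and -0.19 in VM NF.

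Adar, which edits double-stranded RNA and is expressed in most cells, was the most even of the 44, at 21.3 in VM AST, 24.3 in VM C, 21.3 in VM NF, 19.3 in Ctx AST and 19.8 in Ctx NPC. All of its values lay within 19.3 to 24.3. Trex1, a DNA exonuclease, had 29.7 in VM AST, 34.4 in VM C and 17.3 in VM NF, but every 50-base stretch of its transcript is shared with transcripts of Atrip, so its count is uncertain. Of the adaptors and kinases of sensing, 3 of 12 were at least 2-fold higher in VM C, where 7.3% of all transcripts were, namely Tlr7, an endosomal RNA receptor, at 1.77 in VM AST, 20.01 in VM C and 1.32 in VM NF (3.50), the kinase Ikbke at 11.3 in VM AST, 26.4 in VM C and 9.42 in VM NF (1.22) and the factor Irf5 at 8.51 in VM AST, 17.5 in VM C and 8.58 in VM NF (1.04). In VM NF 0 of 12 passed 2-fold in either direction (0.322% of all transcripts were higher and 0.668% lower).

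Isg15, a ubiquitin-like protein that is joined to other proteins, was abundant, with 4071 reads in VM AST, 4727 in VM C, 2025 in VM NF, 1983 in Ctx AST and 235 in Ctx NPC. Its FPKM was 252 in VM AST, 276 in VM C, 131 in VM NF, 122 in Ctx AST and 15.5 in Ctx NPC. VM AST and VM C were close (0.13, interval 0.07 to 0.19), and VM NF was 1.92-fold lower (-0.94, interval -1.02 to -0.86), close to the level in Ctx AST. Usp18, which removes Isg15 and dampens the receptor, had 54.1 in VM AST, 80.3 in VM C, 35.2 in VM NF, 27.0 in Ctx AST and 0.954 in Ctx NPC, so it was higher in VM C (0.57) and lower in VM NF (-0.62). Herc6, the ligase for Isg15 in mice, stood at 9.39 in VM AST, 11.5 in VM C, 8.003 in VM NF, 8.98 in Ctx AST and 1.34 in Ctx NPC. A part of its transcript (23.8% of 50-base stretches) is shared with other transcripts. Trim25, a ubiquitin ligase that acts with the RNA sensor RIG-I, had 25.1 in VM AST, 32.2 in VM C, 24.7 in VM NF, 15.9 in Ctx AST and 4.91 in Ctx NPC, and VM NF and VM AST were nearly equal.

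The Ifit genes encode proteins that bind foreign RNA. Ifit1 had 3893 reads in VM AST, 4969 in VM C, 2281 in VM NF, 2054 in Ctx AST and 43 in Ctx NPC. These gave FPKM of 69.2 in VM AST, 83.4 in VM C, 42.5 in VM NF, 36.3 in Ctx AST and 0.814 in Ctx NPC. It was somewhat higher in VM C (0.27) and lower in VM NF (-0.70, interval -0.78 to -0.63), and in Ctx NPC it was nearly absent. Ifit3 had FPKM of 95.5 in VM AST, 151 in VM C, 59.3 in VM NF, 115 in Ctx AST and 0.525 in Ctx NPC, higher in VM C (0.66) and lower in VM NF (-0.69). Of its transcript 51.2% of 50-base stretches are shared, most with Ifit3b, which had 95.9 in VM AST, 91.0 in VM C and 62.2 in VM NF (-0.08 in VM C), so the ratio of Ifit3 is uncertain. Ifit2, with 19.8 in VM AST, 23.5 in VM C, 17.8 in VM NF, 22.3 in Ctx AST and 3.39 in Ctx NPC, varied least of the 3 between the astrocyte libraries.

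The Oas family, many of them enzymes that make the activator of the antiviral nuclease RNase L, held 4 of the 8 genes called higher in VM C. Oas2, on chromosome 5 from 120730333 to 120749886 on GRCm38.p6, had 67 reads in VM AST, 400 in VM C, 38 in VM NF, 22 in Ctx AST and 0 in Ctx NPC. VM C stood alone among the libraries, 5.61-fold above VM AST (2.49, interval 2.12 to 2.89). Oas3 had 141 reads in VM AST, 614 in VM C, 102 in VM NF, 23 in Ctx AST and 0 in Ctx NPC. It was 4.10-fold higher in VM C (2.04, interval 1.77 to 2.31), and the FPKM of both genes in VM AST was low (0.812 and 1.398). Oas1a had 413 reads in VM AST, 1083 in VM C, 222 in VM NF, 140 in Ctx AST and 0 in Ctx NPC. Its ratio was 1.31 in VM C and -0.83 in VM NF, with the caution that 57.6% of its transcript is shared in 50-base stretches, most with Oas1g. Oas1g itself had FPKM of 1.44 in VM AST, 4.14 in VM C and 0.537 in VM NF, with ratios of 1.51 in VM C and -1.41 in VM NF.

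Oasl1, which limits the translation of Irf7, had 247 reads in VM AST, 667 in VM C, 103 in VM NF, 66 in Ctx AST and 33 in Ctx NPC. It was higher in VM C (1.35) and 1 of the 2 members at least 2-fold lower in VM NF (-1.19, interval -1.54 to -0.86). Oasl2 was the abundant member, with FPKM of 59.5 in VM AST, 82.7 in VM C, 41.4 in VM NF, 40.0 in Ctx AST and 1.34 in Ctx NPC. The ratios of Oasl2 were 0.48 in VM C and -0.52 in VM NF, smaller than those of the other Oas genes in VM C.

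The GTPases, which act on viruses and on vacuoles that hold pathogens, were mixed in VM C and all 5 lower in VM NF. Irgm1, a regulator of the family, had 2596 reads in VM AST, 5466 in VM C, 1459 in VM NF, 1319 in Ctx AST and 565 in Ctx NPC. Its FPKM of 109 in VM C was 1.99-fold the 54.6 in VM AST (0.99, interval 0.92 to 1.06), and 32.2 in VM NF was lower (-0.76). Irgm2 had 15.8 in VM AST, 16.1 in VM C, 10.98 in VM NF, 10.6 in Ctx AST and 1.24 in Ctx NPC, with no difference in VM C beyond counting error (-0.09 to 0.14). Igtp (Irgm3) was lower in both transduced libraries and highest in Ctx AST, at 40.6 in VM AST, 28.3 in VM C, 30.5 in VM NF, 57.3 in Ctx AST and 13.2 in Ctx NPC. Gbp3 had 28.6 in VM AST, 26.0 in VM C, 22.9 in VM NF, 19.3 in Ctx AST and 4.30 in Ctx NPC, and Mx2, a transcribed pseudogene on the reference genome, had 14.2 in VM AST, 9.39 in VM C, 11.2 in VM NF, 7.25 in Ctx AST and 3.17 in Ctx NPC (-0.60 in VM C, -0.34 in VM NF).

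Of the other antiviral effectors, Rsad2 (viperin) and Cmpk2 are neighbours on chromosome 12 that are known to be induced together. Rsad2 had 926 reads in VM AST, 2054 in VM C, 586 in VM NF, 322 in Ctx AST and 17 in Ctx NPC. Cmpk2, a mitochondrial nucleotide kinase, had 276 reads in VM AST, 820 in VM C, 102 in VM NF, 200 in Ctx AST and 176 in Ctx NPC. Both were higher in VM C (1.07 and 1.49) and lower in VM NF (-0.59 and -1.37), and Cmpk2 in VM NF was the lower of the 2 members past the cutoff (interval -1.71 to -1.04). In Ctx NPC, Cmpk2 was close to the level of Ctx AST while Rsad2 was at 0.224 FPKM. Samd9l, a growth and virus restriction factor, stood at 7.37 in VM AST, 16.2 in VM C, 5.18 in VM NF, 3.53 in Ctx AST and 0.544 in Ctx NPC and was likewise higher in VM C (1.13).

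The abundant membrane proteins Ifitm3 and Bst2 were not higher in VM C. Ifitm3, which blocks virus entry, was the member with the highest FPKM, 1386 in VM AST, 1033 in VM C, 1039 in VM NF, 807 in Ctx AST and 420.1 in Ctx NPC, and was lower in both VM C and VM NF than in VM AST (-0.42 and -0.42). Of its transcript 10% is shared in 50-base stretches, most with Ifitm1. Bst2 (tetherin), which holds budding virus at the surface, had 466 in VM AST, 429 in VM C, 354 in VM NF, 259 in Ctx AST and 13.5 in Ctx NPC, with -0.12 in VM C and -0.40 in VM NF. Trim30a stood at 30.5 in VM AST, 36.6 in VM C, 28.0 in VM NF, 16.6 in Ctx AST and 0.106 in Ctx NPC. It was somewhat higher in VM C (0.26), slightly lower in VM NF (-0.12) and nearly absent in Ctx NPC.

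Parp9, Dtx3l and Parp14 work together in ADP-ribosylation after interferon. Parp14 had 9.53 in VM AST, 18.5 in VM C, 7.25 in VM NF, 5.76 in Ctx AST and 0.949 in Ctx NPC and was close to 2-fold higher in VM C (0.96). Parp9 had 17.3 in VM AST, 23.1 in VM C, 10.4 in VM NF, 9.75 in Ctx AST and 6.16 in Ctx NPC, with the largest difference of the 3 in VM NF (-0.73). Dtx3l had 10.6 in VM AST, 14.6 in VM C, 9.99 in VM NF, 9.24 in Ctx AST and 2.80 in Ctx NPC, where VM NF did not differ from VM AST beyond counting error (-0.20 to 0.04).

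Epsti1, which acts in macrophage activation, was the member next to Oas2 in size. It had 58 reads in VM AST, 338 in VM C, 44 in VM NF, 10 in Ctx AST and 0 in Ctx NPC. VM C was 5.47-fold above VM AST (2.45, interval 2.06 to 2.89), and VM NF could not be told from VM AST in counting error (-0.93 to 0.26). Lgals3bp, a secreted glycoprotein, was abundant, at 209 in VM AST, 274 in VM C, 175 in VM NF, 124 in Ctx AST and 1.59 in Ctx NPC, higher in VM C (0.39) and lower in VM NF (-0.26). Rtp4 had 59.1 in VM AST, 68.0 in VM C, 38.6 in VM NF, 27.8 in Ctx AST and 1.84 in Ctx NPC, and VM NF was lower (-0.62). Ifi44 had 43.4 in VM AST, 47.8 in VM C, 32.7 in VM NF, 19.4 in Ctx AST and 0.3599 in Ctx NPC, lower in VM NF as well (-0.41). Xaf1, a cell death factor, had 25.5 in VM AST, 26.4 in VM C, 18.2 in VM NF, 11.5 in Ctx AST and 0.269 in Ctx NPC and showed no difference in VM C beyond counting error. Helz2, a nuclear coactivator, had 7.56 in VM AST, 9.37 in VM C, 7.37 in VM NF, 3.42 in Ctx AST and 0.563 in Ctx NPC, nearly equal in VM NF and VM AST. Ifi35 and Tor3a were lower in VM C (-0.37 and -0.38), with FPKM of 51.6 in VM AST, 39.9 in VM C and 38.9 in VM NF for Ifi35 and 43.0 in VM AST, 32.9 in VM C and 37.6 in VM NF for Tor3a.

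The wider interferon-induced genes, 25 of 27 listed being in the files, were counted in the same way. In VM C, 10 were at least 2-fold higher and 1 lower (median 0.42), where 7.3% and 8.48% of all transcripts were. In VM NF 0 of 24 were higher and 2 lower, Tgtp1 and Oas1g (median -0.45), beside 0.322% and 0.668%. The 10 were Slfn5 (2.29), Slfn2 (1.98), Slfn8 (1.06), Irf8 (2.38), Phf11a (2.50), Phf11d (1.20), Ccl5 (1.25), Ifi27l2a (1.08), Sp100 (1.03) and Oas1g. Irf8, a factor of the myeloid lineage, had FPKM of 5.84 in VM AST, 30.4 in VM C and 5.62 in VM NF. Of the genes of MHC class I and peptide loading, 0 of 13 were past 2-fold in either direction in VM C or VM NF (medians 0.13 and -0.18), against the same shares of all transcripts. B2m, the light chain of class I, had 1780 in VM AST, 2200 in VM C and 1659 in VM NF.

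**Figure D3:**
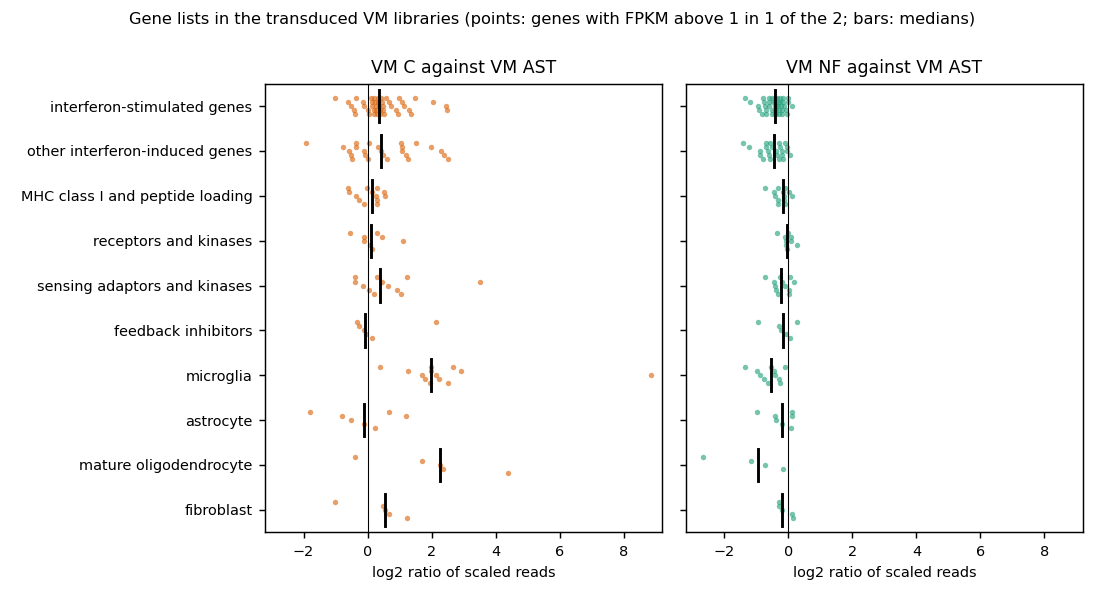
Log2 ratios of VM C (left) and VM NF (right) against VM AST for the interferon-stimulated genes, 5 further interferon-related lists and 4 cell type marker lists, with 1 point per gene that passed the FPKM filter and bars at the medians. The microglial markers had a median of 1.99 in VM C, against 0.35 for the 44 interferon-stimulated genes.

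Since several of these genes are also expressed in microglia, the marker values are given for the whole list. The summed FPKM of the microglial markers was 213, 797, 153, 85.8 and 14.5 in VM AST, VM C, VM NF, Ctx AST and Ctx NPC. Cx3cr1, a chemokine receptor, was low, with FPKM of 0.375 in VM AST, 1.51 in VM C and 0.183 in VM NF. Tyrobp, a signalling adaptor of microglia, was high, at 56.7 in VM AST, 249 in VM C and 39.3 in VM NF. Fcrls had 1 reads in VM AST, 734 in VM C and 2 in VM NF. Trem2 was at 0 reads in Ctx NPC. Markers of mature oligodendrocytes were at least 2-fold higher in VM C for 4 of 5, with 655 reads in VM AST, 3543 in VM C and 277 in VM NF for Mbp, and T and NK cell markers were at 0 to 6 reads. Of the neuron markers 2 of 5 passed the filter and both were at least 2-fold higher in VM C (median 1.99). Over all 5, 4 were higher and 1 was lower. The lower one was Syt1, just under the filter, with 91 reads in VM AST and 24 in VM C (-1.98, interval -2.72 to -1.34). Astrocyte markers went in both directions (1 of 7 at least 2-fold higher, 1 lower), where 7.3% and 8.48% of all transcripts were. So did endothelial markers (1 higher and 1 lower of 2 that passed, the lower one, Kdr, through VM AST only). Fibroblast markers did too (1 higher and 1 lower of 5). None of these lists was tested for its part in the interferon values.

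Ctx AST, the cortical library with no virus entry, was lower than VM AST for 39 of 43 genes that passed the filter (54.7% of all transcripts were), 14 at least 2-fold (9.89%), and 0 were at least 2-fold higher (4.49%), with a median of -0.78 against -0.05. With FPKM above 1 required in both libraries, 12 of 41 were at least 2-fold lower (6.47% of all transcripts). Zbp1 (-2.75), Oas3 (-2.60) and Epsti1 (-2.49) were the lowest. Oas3 (23 reads in Ctx AST) and Epsti1 (10 reads) passed the filter through VM AST only. Oasl1 was lower as well (-1.90, with 66 reads). Igtp (0.50), Ifit3 (0.27) and Ifit2 (0.17) were higher in Ctx AST, and Tor3a was near level (0.04). Under TMM scaling Herc6 also turned higher. 13 of 14 microglial markers were lower in Ctx AST, at a median of -1.50 over all 14. Fibroblast markers were lower too, 4 of 5 at least 2-fold (median -2.01), and so were 3 of the 4 mature oligodendrocyte markers that passed the filter. Of these, Lum and Mag passed the filter through VM AST only. Among astrocyte markers, 4 of 7 were at least 2-fold higher (median 1.17). The part of these marker lists in the lower interferon-stimulated genes was not tested.

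Ctx NPC was lower than Ctx AST for 40 of 41 genes (42.7% of transcripts), 34 at least 2-fold (17.9%) and 0 higher (20.1%), with a median of -2.72 against 0.19 over all transcripts. Other scalings moved the all-transcript median by -0.17 to -0.18 and turned Adar, the one gene not lower, to lower. Zbp1, Oas1a, Oas2, Oas3 and Epsti1 had 0 reads in Ctx NPC, where 93, 140, 22, 23 and 10 were read in Ctx AST. Zbp1 and Oas1a were therefore at least 28.9-fold and 43.6-fold lower. Ifit3 (-7.75), Trim30a (-7.21) and Lgals3bp (-6.27) were the lowest among genes that still had reads, while Adar (0.04) and Cmpk2 (-0.08) differed little. Zbp1, Oas1a, Ifit3 and Trim30a passed the filter through Ctx AST only. With FPKM above 1 required in both libraries, 19 of 25 members were at least 2-fold lower (13.2% of all transcripts). Microglial markers were lower in Ctx NPC for 13 of 14 (median -4.38), at least 2-fold for all 9 that passed the filter. Neuron markers (5 of 5, median 3.90) and mature oligodendrocyte markers (6 of 6, median 6.18) were at least 2-fold higher, and the part of these lists was not tested. Ctx NPC differs from Ctx AST in age and cell type, which cannot be told apart here.

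**Figure D4:**
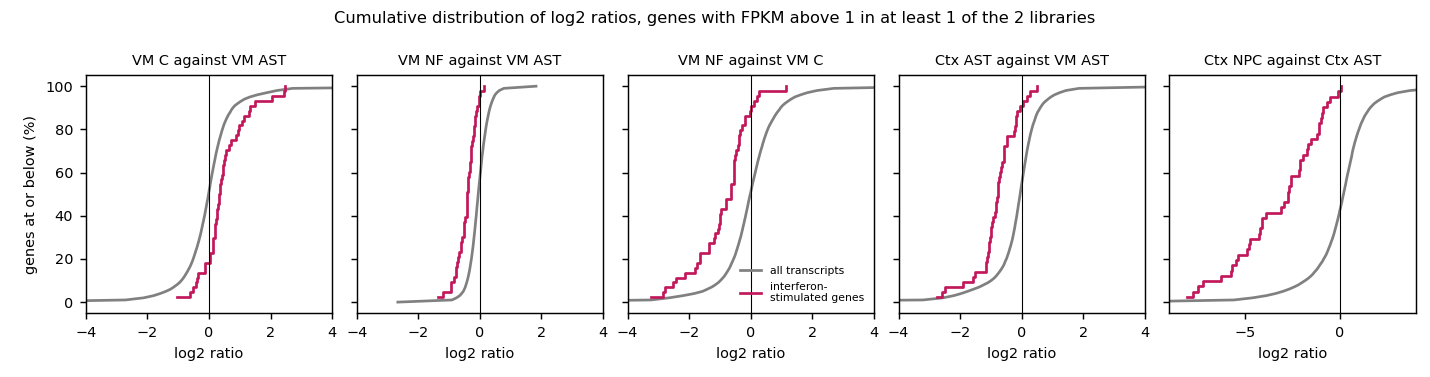
Cumulative share of genes (%) at or below each log2 ratio in the 5 comparisons, for the interferon-stimulated genes (red steps) and all transcripts that passed the FPKM filter (grey). Over most of its length the red line lies right of the grey one in VM C against VM AST (medians 0.35 and -0.01) and left of it in the other 4 comparisons.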

How the data were processed

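Each condition had 1 library. Per the study's methods the authors trimmed reads at a quality of 20, checked mismatches with Bowtie, mapped them with STAR to GRCm38/mm10 and counted them on RefSeq (Release 105) with HTSeq-count. The submitters' processing notes list another build, mm9, beside bcl2fastq 1.8.4, STAR, HTSeq and DESeq. The strand setting and the treatment of multiply mapped reads are not given in the sources used here. The deposited files hold raw read counts per RefSeq transcript and the authors' FPKM, which recomputation from the counts matched to a relative difference of 4.09e-05.

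Symbols came from RefSeq for 19997 transcripts and from GENCODE for 96, and 85 were kept under their identifier. Promoters and coordinates came from RefSeq on GRCm38.p6. Counts were scaled to library totals with 0.5 reads added, and intervals are exact (Clopper-Pearson, 95%). Called genes differed at least 2-fold with FPKM above 1 in at least 1 of the 2 libraries. No p was computed. TMM (edgeR 4.0.16) and median-of-ratios (DESeq2 1.42.0) scaling, upper-quartile scaling, 5 reads added, other filters, a 1.5-fold cutoff and the counting interval were the alternatives. The calculations were tested on simulated data with 200 genes changed 4-fold among 20178, of which 100% were called in each of the 5 comparisons, with 3 to 11 unchanged genes called. Those counts held counting error only. The members and lists were chosen with earlier results of these data known. All members were counted, values were given for members with FPKM above 1 in a VM library, and from the pathway lists for ligands with reads, receptor and kinase genes and genes past 2-fold in VM C or VM NF. Further genes named outside this rule (Ifit3b, B2m, marker genes) were chosen after their values were seen. A further gene of the pathway lists is not reported here. Shared transcript sequence was counted in 50-base stretches against the reference transcripts. Python 3.11.15, numpy 2.4.6, pandas 2.3.3, scipy 1.17.1, matplotlib 3.10.9 and R 4.3.3 were used.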

Additional observations from a re-analysis of the deposited data

How the results depend on the processing

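With the cutoff at 1.5-fold, 13 members were higher and 2 lower in VM C than in VM AST (14.6% and 17.4% of all transcripts), 13 were lower in VM NF than in VM AST (4.14%), and 28 were lower in Ctx AST than in VM AST (17%). With median-of-ratios scaling 0 members were at least 2-fold lower in VM C than in VM AST, since Irf1 fell short of the cutoff. With FPKM above 1 required in both libraries 19 of 25 members were at least 2-fold lower in Ctx NPC than in Ctx AST (13.2% of all transcripts), because fewer genes passed. The other 104 values for counts and medians moved by less than 1.5 times or less than the interval, and none changed direction. For single members 346 ratios stayed within their counting interval. The exceptions were Bst2, Ifitm3 and Lgals3bp under median-of-ratios scaling in VM C and under TMM scaling in VM NF. No paired analysis was possible because each condition had 1 library. For the same reason no replicate could be left out, and differences between cultures of one condition are unknown. Genes with few reads in VM AST, such as Oas2 and Epsti1, have wide intervals, and the interferon ligands were below what this depth can measure.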

Other observations

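Genes outside the 44 whose promoter windows hold the ISRE letters were also counted, as a description. Of 312 such genes that passed the filter in VM C against VM AST, 39 were at least 2-fold higher (12.5%) and 24 lower (7.69%), beside 6.78% and 8.26% of the 9829 other genes with a window and without the letters. In VM NF against VM C, 56 of 312 were at least 2-fold lower (17.9%, against 9% without the letters) and 23 higher (7.37%, against 9.29%). In Ctx AST against VM AST, 56 of 300 were at least 2-fold lower (18.7%, against 8.86%). In VM NF against VM AST few genes of either kind passed 2-fold, 7 of 298 lower (2.35%) against 57 of 9631 (0.592%). Among the members themselves, 3 of 13 with the letters (23.1%) and 4 of 22 with a window and without them (18.2%) were at least 2-fold higher in VM C. Genes with the letters include genes of other interferon lists, and VM AST and VM C each enter more than 1 of these comparisons.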
